A study of Mus musculus with 8 samples.

Results

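The 10 transcription factors described here are Lef1, Msx1, Msx2, Foxn1, Hoxc13, Dlx3, Gata3, Cux1, Foxq1 and Prdm1, which act in the matrix and the inner root sheath of the hair follicle or, for Foxq1, in the medulla of the hair shaft. They were chosen by name, with earlier results of these data known, out of 14774 named genes that could be tested. Array probes were taken where their RefSeq accession maps to 1 of these genes. All 10 were measured, by 12 probes (3 for Cux1 and 1 for each other gene), and every one of these probes was well above background on all 8 arrays. The skin came from C57BL/6N mice and total RNA was hybridised to single-colour expression arrays, 1 array per sample. The 3 groups were hair loss skin of Cchcr1 mutants (n = 2), normal skin of Cchcr1 mutants (n = 4) and normal skin of the wild type (n = 2). The mutants were made by CRISPR/Cas9 editing of Cchcr1, a gene for a coiled-coil protein, as a mouse model of patchy hair loss. Neither the edited allele nor the age of the mice is stated, and the labels name no other allele or agent in any group. Sample titles carry 1 of 3 names (Mutant097, Mutant113, Wild001) and the letter S for hair loss or A or B for normal skin, and what the number and the letter mark is not explained. Each mutant name has 1 hair loss array and 2 normal skin arrays, and both wild type arrays are Wild001, so genotype and title name cannot be told apart. Since the samples may be pieces from 1 animal per name, p-values measure only the spread between these samples.

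A growing hair is built by matrix cells at the base of the follicle, which divide, move upwards and differentiate into the concentric layers of the hair shaft and of the inner root sheath that moulds it. Wnt signals, through beta-catenin and Lef1, and bone morphogenetic protein signals, through factors such as Msx2, act on these cells, and Foxn1 and Hoxc13 switch on keratin genes of the shaft. Because this machinery is dismantled when a follicle rests and rebuilt when it grows, levels of these factors in whole skin differ between phases of the hair cycle. In whole skin, fewer cells of a type and less RNA per cell cannot be told apart.

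The series as a whole was checked first. The 75th percentile of the processed intensity lay between 83.1 (wild type B) and 211 (hair loss of Mutant113), and 25424 to 30205 probes per array were well above background. All arrays were on 1 slide, with both hair loss arrays and the normal skin of Mutant097 in row 1, whereas row 2 held both wild type arrays and the normal skin of Mutant113. Xist was well above background on the 3 arrays of Mutant113 and on 0 of the other 5, and the Y-linked genes Ddx3y and Eif2s3y showed the reverse. Keratinocyte markers, present on all arrays, differed by a median of 0.21 on the log2 scale between normal skin of the mutants and the wild type, and T cell markers by 0.03. Cchcr1 itself lay between -0.04 and 0.32 in normal skin of the mutants and at -0.03 and -0.07 in the wild type. An edited gene can still be transcribed, so this does not test the labels.

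The 300 bases around annotated start sites (250 before and 50 after) were searched on both strands for short motifs of families in the list. These were CTTTGAA or CTTTGAT or CTTTGTA or CTTTGTT for Lef1 and its relatives, AGATAA or TGATAA for the GATA family, TAATTG for homeodomains, and GTAAACA or ATAAACA for forkhead factors. Each motif stands for a family and need not be what a given member binds, and none was searched for Prdm1. RefSeq promoter entries (GRCm38.p6) existed for 7 of the 10 genes, in 10 windows, and none was listed for Hoxc13, Dlx3 and Foxq1. The 3 windows below are those with the most motif families among the members, among hair shaft genes and among inner root sheath genes. Krt32 encodes a hair shaft keratin and Krt25 an inner root sheath keratin. Capitals mark every motif match on either strand.
Lef1, chr3:131156044-131156343, + strand, GRCm38.p6: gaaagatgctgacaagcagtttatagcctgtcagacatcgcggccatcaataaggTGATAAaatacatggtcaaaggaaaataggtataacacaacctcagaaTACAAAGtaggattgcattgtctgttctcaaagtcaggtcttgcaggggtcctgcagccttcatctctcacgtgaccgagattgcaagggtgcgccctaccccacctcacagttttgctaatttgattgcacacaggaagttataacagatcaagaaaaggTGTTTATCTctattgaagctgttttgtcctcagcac
Krt32, chr11:100088220-100088519, - strand, GRCm38.p6: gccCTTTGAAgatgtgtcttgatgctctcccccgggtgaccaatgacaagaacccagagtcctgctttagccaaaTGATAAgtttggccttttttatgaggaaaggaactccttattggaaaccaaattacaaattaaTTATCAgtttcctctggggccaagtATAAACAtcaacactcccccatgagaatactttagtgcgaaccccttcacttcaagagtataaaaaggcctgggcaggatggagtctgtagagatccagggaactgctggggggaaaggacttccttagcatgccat
Krt25, chr11:99322902-99323201, - strand, GRCm38.p6: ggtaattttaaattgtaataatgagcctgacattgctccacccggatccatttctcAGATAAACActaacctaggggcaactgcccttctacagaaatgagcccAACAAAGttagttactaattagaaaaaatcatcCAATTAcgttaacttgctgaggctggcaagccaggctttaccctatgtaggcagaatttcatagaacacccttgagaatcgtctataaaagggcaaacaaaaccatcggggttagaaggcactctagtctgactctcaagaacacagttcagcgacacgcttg

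The Lef1 window, 1 of 4 start sites listed for that gene, held a motif of the family of Lef1 itself at position -147 from the start. It also held 2 GATA motifs and 1 forkhead motif that overlaps the second of them. The other windows of Lef1 held none of the motifs. In the Krt25 window the GATA and forkhead motifs overlap in the first run of capitals, and the Lef1-type and homeodomain motifs follow. Among 11 windows of inner root sheath genes, 54.5% held a GATA motif and 54.5% the homeodomain motif, against 18.6% and 8% of all 32851 promoters. A Lef1-type motif was in 36.4% of them, against 16.9% of all promoters, and a forkhead motif in 9.09%, against 7.97%. Of 12 windows of 9 hair shaft genes, 41.7% held a Lef1-type motif and 25% a forkhead motif. The homeodomain motif (8.33%) was near its share of all promoters and the GATA motif (8.33%) below it. Windows within a list are not independent. The neighbouring, related genes Krt31, Krt32, Krt33b and Krt34 each held CTTTGAA between positions -247 and -240, and S100a3 had several windows. Most inner root sheath windows were likewise of related keratins (Krt25 to Krt28 and Krt71 to Krt73). In the 10 windows of the members the shares were 10% for the Lef1-type, 10% for the GATA, 0% for the homeodomain and 30% for the forkhead motif. The motifs are rich in A and T. Windows of the inner root sheath and hair shaft genes are poorer in G and C than promoters at large. Their median was 46.7% in the inner root sheath genes and 48.2% in the hair shaft genes, against 52.7% over all promoters. Windows of the members were richer, at a median of 63.8%. Among the members, windows of Cux1 and Prdm1 held 1 forkhead motif each, and those of Foxn1, Msx1, Msx2 and Gata3 held none of these letters. A match is a description of sequence and not a site bound by a factor.

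Levels are given on a log2 scale with the 75th percentile of each array as reference, so that 0 stands for that percentile and 1 unit for a doubling, and they do not compare 1 gene with another. A difference was called when limma's p-value, adjusted by the Benjamini-Hochberg method over 30417 probes, was under 0.05.

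The comparison of normal skin between genotypes asks whether these factors differ in mutant skin that has kept its hair. Hoxc13 was the 1 member of 10 called, higher in the mutants, where 0.694% of all probes were called in either direction and 0.575% as higher. For 9 of the 10 genes the 4 mutant arrays all lay above both wild type arrays, a pattern found in this direction for 13.6% of all probes, and Dlx3 was the exception. The median difference over the 10 genes was 1.19, against -0.04 over all probes. Most members therefore had higher values in mutant normal skin, while with 2 wild type arrays the test called a single one. Because they were chosen with earlier results known, these shares and medians describe the members and are no test of them.

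Hoxc13, a homeodomain activator of hair keratin genes, stood at -0.50 and -1.20 in the wild type arrays B and A. In normal skin of the mutants it was 2.48 and 1.37 (Mutant097 B and A) and 2.81 and 1.88 (Mutant113 B and A). All 4 mutant values lay above the wild type ones with no overlap, and within each title name array B was the higher. The difference was 2.98 (SE 0.48, adjusted p = 0.0475), or 7.90-fold. The call was lost when any single array was left out (adjusted p of 0.0516 to 0.194) except array A of Mutant097 (0.0385), and the difference stayed between 2.63 and 3.33 in these fits.

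Msx2, a homeodomain repressor whose loss in mice leads to cyclic hair loss, also had array B above array A within each title name. Its levels were -0.57 and -0.74 (wild type B and A), 2.87 and 1.50 (Mutant097 B and A) and 2.49 and 1.80 (Mutant113 B and A). The mutant arrays lay above the wild type arrays, which were close to each other. The difference of 2.82 (SE 0.49) narrowly missed the threshold (adjusted p = 0.0573) and passed it when either hair loss array was left out (0.0470 in both fits).

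Lef1, the nuclear partner of beta-catenin in Wnt signalling, spread widely within groups. Its levels were -0.73 and -2.29 in the wild type, 1.56 and 0.29 in normal skin of Mutant097, and 0.74 and 0.44 in that of Mutant113. The groups did not overlap, but the wild type arrays differed from each other by more than any 2 arrays of mutant normal skin. The difference of 2.26 (SE 0.59) was not called (adjusted p = 0.144).

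Msx1, the close relative of Msx2, was at -1.85 and -1.97 in the wild type. Normal skin gave 0.64 and -0.32 in Mutant097 and -1.10 and -0.78 in Mutant113, so that both arrays of Mutant097 lay above both of Mutant113. The difference from the wild type was 1.52 (SE 0.51, adjusted p = 0.211).

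Foxn1, the winged-helix factor missing in nude mice, had the opposite order between the mutant names. Its levels were -2.04 and -1.37 in the wild type, -0.72 and -1.31 in normal skin of Mutant097, and 0.96 and 0.22 in that of Mutant113. Array A of Mutant097 lay next to the wild type, and both arrays of Mutant113 lay well above it. The difference over all arrays was 1.50 (SE 0.60, adjusted p = 0.261). Against the wild type, normal skin of Mutant113 taken alone was called for Foxn1 (2.30, SE 0.38, adjusted p = 0.0450) and for Hoxc13 (3.19, SE 0.51, adjusted p = 0.0415), among 3.26% of all probes. Normal skin of Mutant097 taken alone had 0 members called (0.999% of all probes), with Foxn1 at 0.70 (adjusted p = 0.360), Hoxc13 at 2.77 (0.0838) and Msx1 at 2.07 (0.0723). These comparisons share the wild type arrays. That of Mutant113 coincides with the sex-linked genes and that of Mutant097 with slide row, so genotype cannot be told apart from these.

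**Figure D1:**
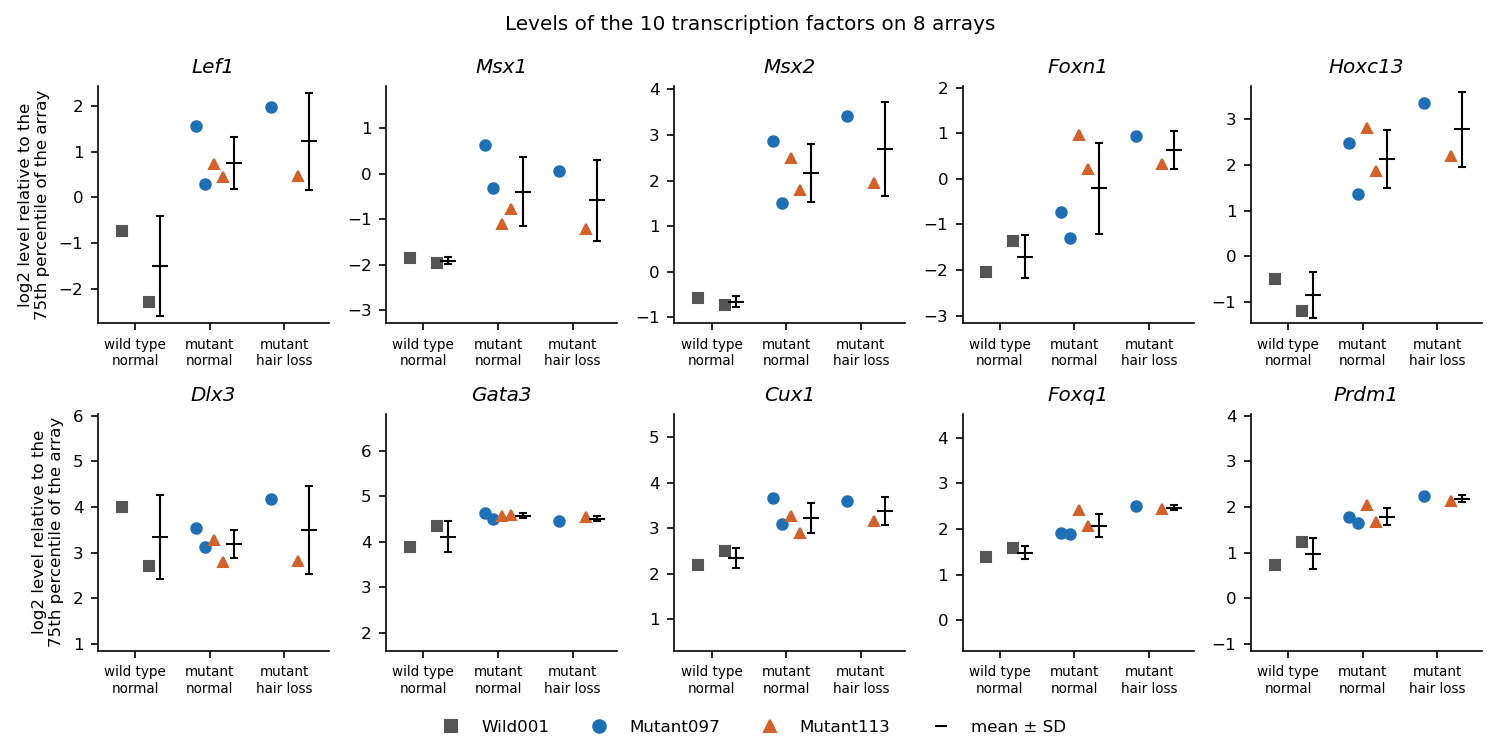
Log2 level of each transcription factor (y axis, relative to the 75th percentile of the array) on the 8 arrays, by group, with the title name as symbol and the mean ± SD of each group as a dash with bars (n = 2, 4 and 2), all panels spanning the same number of log2 units. The wild type squares lie below all mutant normal arrays in every panel except Dlx3, and the mutant hair loss arrays lie within or near the range of mutant normal skin.

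The factors of the inner root sheath and the medulla had smaller differences. Prdm1, also known as Blimp1, a repressor found in the inner root sheath and in differentiating epidermis, was at 0.73 and 1.23 in the wild type and between 1.66 and 2.05 in mutant normal skin, a difference of 0.81 (SE 0.21, adjusted p = 0.137). Foxq1, a forkhead factor of the hair medulla that is mutated in satin mice, was at 1.37 and 1.58 and between 1.89 and 2.42, a difference of 0.60 (SE 0.20, adjusted p = 0.209). Gata3, which specifies the inner root sheath and is also made by T cells, was at 3.88 and 4.35 in the wild type and at 4.50 to 4.64 in mutant normal skin, a difference of 0.46 (SE 0.18, adjusted p = 0.257). Groups did not overlap for these 3 genes, and none was called.

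Cux1, a cut-type homeodomain factor of the inner root sheath, was read by 3 probes. The brightest gave 2.20 and 2.51 in the wild type and 2.89 to 3.66 in mutant normal skin, a difference of 0.88 (SE 0.26, adjusted p = 0.169). The other two gave 1.33 (adjusted p = 0.121) and 0.68 (adjusted p = 0.277). The 3 probes had the same direction, and none was called.

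Dlx3, a homeodomain factor of the matrix and of differentiating epidermis, was the member without a separation. Its levels were 4.0 and 2.70 in the wild type, 3.53 and 3.13 in normal skin of Mutant097, and 3.28 and 2.79 in that of Mutant113. The wild type arrays spanned the mutant ones. The difference of -0.16 (SE 0.47, adjusted p = 0.883) turned to 0.49 without wild type array B, and its 95% interval ran from -1.26 to 0.93.

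**Figure D2:**
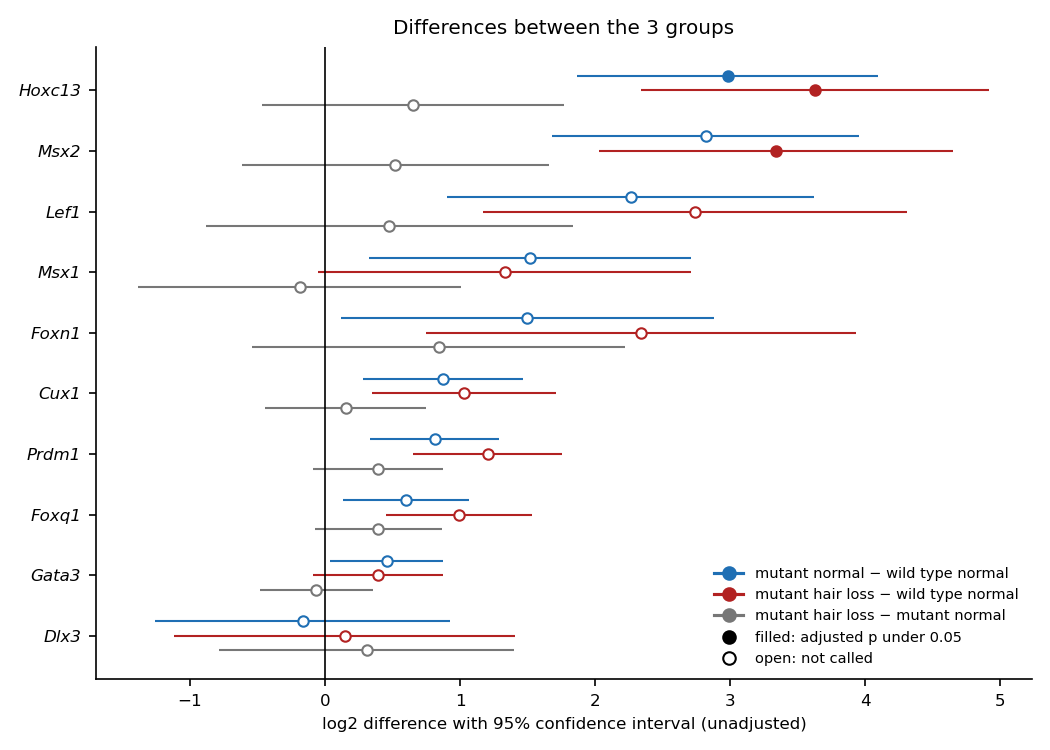
Log2 difference between groups (x axis) for each transcription factor (y axis) with unadjusted 95% confidence intervals from limma, filled where the adjusted p was under 0.05. Filled points are Hoxc13 in both comparisons with the wild type and Msx2 in hair loss skin against the wild type, and every grey interval (hair loss against normal skin of the mutants) includes 0.

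Hair loss skin was then set against mutant normal skin, to ask whether these factors differ where hair was lost. No probe of 30417 was called (0% in limma, with 5.2% at an unadjusted p under 0.05), and the members had adjusted p-values of 0.988 to 0.999. Their median difference was 0.39, against -0.01 over all probes, with 8 genes higher and 2 lower in hair loss skin. A loss of these factors at the sites of hair loss was not detected. The unadjusted 95% interval of the difference allowed a fall of 0.07 for Foxq1 and 0.09 for Prdm1, the smallest among the members. It allowed a fall of 0.88 for Lef1 and 1.38 for Msx1. The fit treats arrays that may come from 1 animal as separate, so these intervals do not exclude a larger fall.

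Foxq1 and Prdm1 were the members whose hair loss arrays both lay above all 4 normal arrays, a pattern shown by 5.73% of all probes. Foxq1 reached 2.51 (Mutant097) and 2.43 (Mutant113) in hair loss skin, a difference of 0.40 (SE 0.20). Prdm1 reached 2.24 and 2.13, a difference of 0.39 (SE 0.21). For both, the upper end of normal skin was array B of Mutant113, which lay 0.01 (Foxq1) and 0.08 (Prdm1) below the hair loss array of the same name. Gata3 was the steadiest, at 4.47 and 4.56 in hair loss skin, a difference of -0.06 (SE 0.18) from normal skin of the mutants.

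Most of the remaining members split by title name. Hair loss skin of Mutant097 and Mutant113 had Hoxc13 at 3.37 and 2.20, Msx2 at 3.42 and 1.96, Lef1 at 1.99 and 0.48, and Dlx3 at 4.18 and 2.81. In each case the array of Mutant097 was the highest of all 8 and that of Mutant113 lay inside the range of mutant normal skin. Without the hair loss array of Mutant097 the differences for Msx2, Lef1 and Dlx3 turned from 0.52, 0.48 and 0.31 to -0.21, -0.28 and -0.37, and that for Hoxc13 moved from 0.65 to 0.06. Cux1 (0.15, SE 0.26) and Msx1 (-0.19, SE 0.51) had hair loss arrays inside the range of normal skin or just below it, and both values changed sign when 1 array was left out (-0.07 for Cux1 without hair loss of Mutant097, and 0.44 for Msx1 without hair loss of Mutant113).

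Within a title name, each hair loss array can be set against the 2 normal arrays. In Mutant097 it was above both for 7 of the 10 genes and below both for Gata3, where 34.7% and 40.6% of all probes did so. In Mutant113 it was above both for 2 genes (Foxq1 and Prdm1), below both for 2 (Msx1 and Gata3) and between them for 6, where 39.4% and 33% of all probes were above or below both. The largest contrast was Foxn1. It read 0.93 in hair loss skin of Mutant097 against -0.72 and -1.31 in its normal skin, and 0.33 in hair loss skin of Mutant113 against 0.96 and 0.22. The lesion difference was thus 1.94 in Mutant097 and -0.26 in Mutant113. Each name has 1 hair loss array, so tests of these differences hold no spread of hair loss skin. They rest on the spread between normal skin arrays A and B alone. Tested directly, the 2 differences were apart by -2.21 (SE 0.66, adjusted p = 0.413), and 0 probes of all were called in that test at the main setting (9.5% at an unadjusted p under 0.05). Within either name 0 members were called, against 0.628% of all probes in Mutant097 and 0.00329% in Mutant113. For 9 of the 10 members the lesion difference was lower in Mutant113, with Gata3 as the exception at 0.08. The hair loss array of Mutant113 was in slide row 1 and its normal skin arrays in row 2, while all arrays of Mutant097 were in row 1. The lesion difference in Mutant113 therefore cannot be told apart from slide row. The difference between the names cannot be told apart from slide row or the sex-linked genes.

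**Figure D3:**
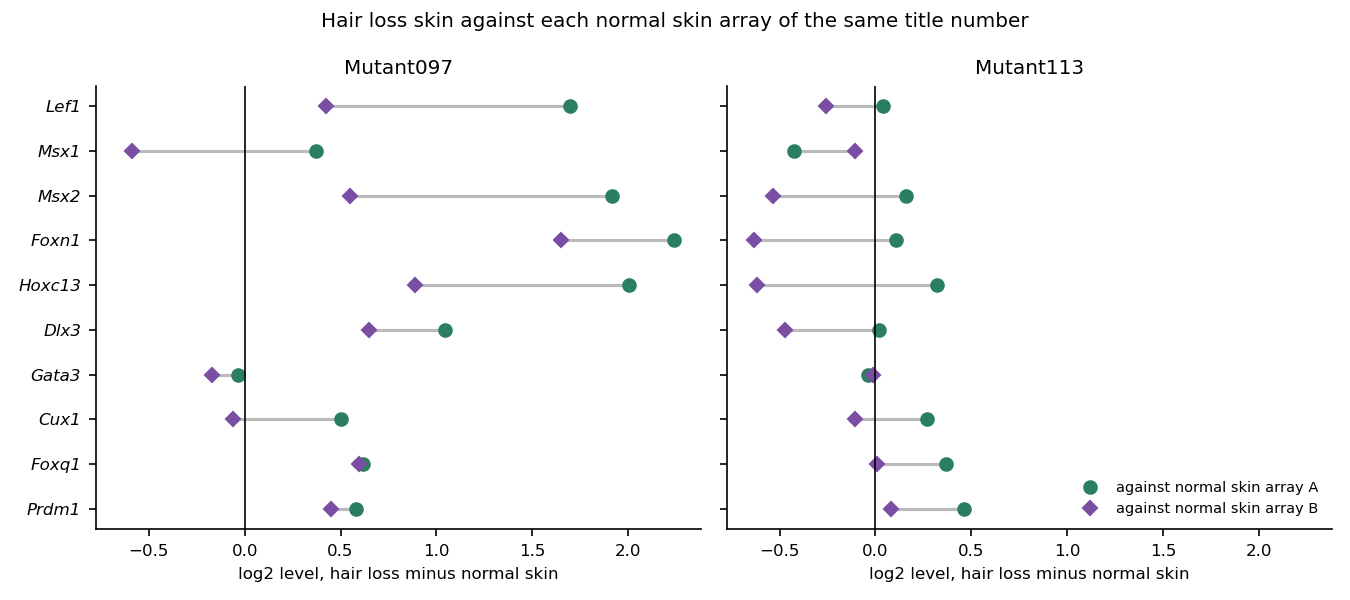
Log2 level in hair loss skin minus that in each normal skin array of the same title name (x axis) for each transcription factor (y axis), with Mutant097 on the left and Mutant113 on the right, and a grey line joining the comparisons with arrays A and B. In Mutant097 both points lie right of 0 for 7 genes, and in Mutant113 for Foxq1 and Prdm1.

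The 2 names also differed in normal skin for single members. Foxn1 was 1.61 higher in Mutant113 than in Mutant097 (SE 0.38, adjusted p = 0.176) and Msx1 was lower there (difference -1.10, SE 0.34, adjusted p = 0.243). None of the 10 was called, against 0.266% of all probes. In this comparison title name, slide row and the sex-linked genes coincide and cannot be told apart.

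Set against the wild type, hair loss skin had Hoxc13 higher by 3.63 (SE 0.56, adjusted p = 0.0310, 12.4-fold) and Msx2 by 3.34 (SE 0.57, adjusted p = 0.0401, 10.1-fold). These 2 of 10 members were called, among 1.42% of all probes in either direction and 0.993% as higher. Both calls were lost without the hair loss array of Mutant097, without normal skin array A of Mutant113 and without either wild type array, with adjusted p-values of 0.0509 to 0.160 for Hoxc13 and 0.0575 to 0.181 for Msx2. Prdm1 (1.20, adjusted p = 0.0576), Foxq1 (0.99, 0.0747), Lef1 (2.74, 0.0795), Cux1 (1.03, 0.100) and Foxn1 (2.34, 0.104) did not pass. Msx1 (1.33, 0.215), Gata3 (0.39, 0.279) and Dlx3 (0.15, 0.887) were further from it, and the value of Dlx3 turned negative without the hair loss array of Mutant097 (-0.54) or wild type array A (-0.51). For 9 of the 10 members, all but Dlx3, both hair loss arrays lay above both wild type arrays, as 24.8% of all probes did. This comparison shares the wild type arrays with that of normal skin. Both hair loss arrays were in slide row 1 and both wild type arrays in row 2, so between them group and slide row cannot be told apart.

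Hoxc13, Lef1, Msx2 and Foxn1 had the widest ranges over the 8 arrays (4.57, 4.27, 4.15 and 3.01). The genes whose levels followed them most closely, by Pearson correlation over 8 arrays among 14774 genes, were Actbl2, Lrrc75b and Slc6a13 for Hoxc13 (r of 0.998 to 0.997), Serpina9, Mtcl1 and Adamts18 for Msx2 (0.995 to 0.992), Pdzd2, Ascl4 and H2ac6 for Lef1 (0.982 to 0.973), and Plod2, Tmem229b and Tm4sf1 for Foxn1 (0.995 to 0.988). The 8 arrays fall into a wild type and a mutant set, and these correlations describe the arrays without a test.

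Within the 6 mutant arrays, which share 2 title names, some members varied together. Msx2 varied with Lef1 (r = 0.97) and with Hoxc13 (0.93), and Lef1 with Dlx3 (0.92) and Cux1 (0.91). Foxq1 varied with Prdm1 (0.93) and Foxn1 (0.91). Other pairs went apart, with -0.44 between Msx1 and Foxn1 and -0.48 between Msx1 and Foxq1, and the median over all 45 pairs was 0.49. These 6 points share title names and a slide, and the correlations are descriptions without a test.

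The other genes of the follicle were counted to place these values. Of 14 hair shaft structural genes tested, 9 were well above background on neither wild type array and entered the test through the mutant arrays, so a count or median over the list supports nothing. Only 3 were above background on both wild type arrays. Of these the calcium-binding protein S100a3 of the cuticle (7.52, adjusted p = 0.00695) and the hair keratin Krt31 (6.06, adjusted p = 0.0273) were called higher in normal skin of the mutants, and Krt81 was not (4.44, adjusted p = 0.127). Of 12 inner root sheath structural genes, 8 were above background on both wild type arrays. Of those 8, 5 were called higher, such as Krt71 (9.09, adjusted p = 0.00761) and Tchh, the granule protein trichohyalin (7.69, adjusted p = 0.00724). Krt72 (1.93, adjusted p = 0.240) and Padi1 (3.29, 0.134) were higher and not called. Tgm3 went the other way and was not called (-0.63, adjusted p = 0.239). Over all probes, 0.575% were called higher in normal skin of the mutants. On the wild type arrays 4 of the 14 hair shaft genes were well above background, and on the mutant arrays 13 or 14. The filter builds in this contrast, since 9 of the genes passed it through the mutant arrays alone. In the 6 mutant arrays Foxn1 correlated with the mean level of the hair shaft genes (r = 0.97) and of the inner root sheath genes (0.96) alike. For Foxq1 the values were 0.91 and 0.86, for Prdm1 0.77 and 0.79, and for Hoxc13 0.75 and 0.89. The other members ran from -0.38 (Msx1) to 0.50 (Msx2) with the hair shaft genes. With the inner root sheath genes they ran from -0.19 (Msx1) to 0.70 (Msx2). With the proliferation genes the correlation was 0.88 for Cux1, 0.80 for Msx1 and -0.34 for Foxn1. These too are descriptions of 6 arrays that share 2 title names.

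**Figure D4:**
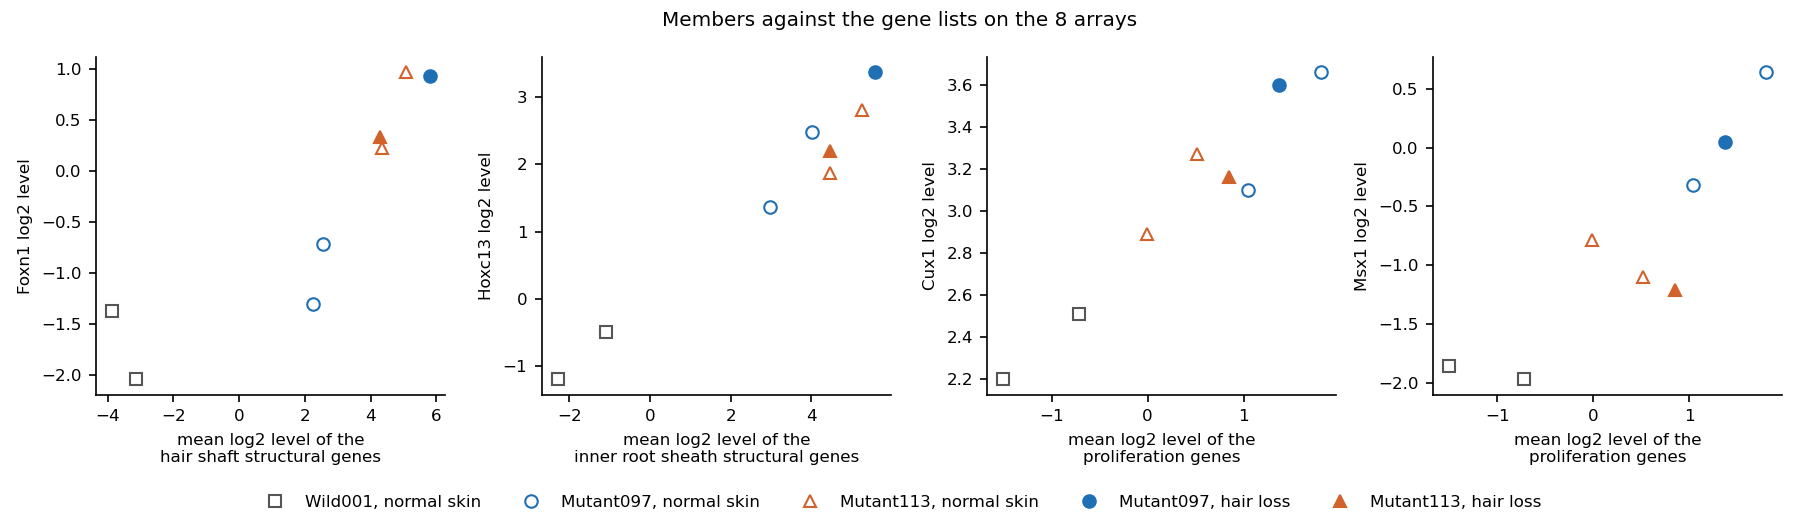
Log2 level of 4 members (y axes) against the mean log2 level of a gene list (x axes) on each array, with the title name as symbol and hair loss skin filled. Foxn1 is lowest on the mutant side in normal skin of Mutant097, where the hair shaft genes are also lowest, and Cux1 and Msx1 are highest in array B of Mutant097, where the proliferation genes are highest.

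Lists of proliferation genes and of markers of other cells had 0 genes called between normal skin of the mutants and the wild type, and their levels are given beside the members. The 8 proliferation genes had a median of 1.89 in that comparison (1.80 with the gene not above background in the wild type at its bound), with 8 of 8 higher. Their summed level, on the same log2 scale, was 2.48 to 3.06 in the wild type, 3.89 to 5.62 in mutant normal skin and 4.64 to 5.20 in hair loss skin. The melanocyte list had 6 of 7 genes higher and 0 called, with summed levels of 4.36 to 4.60, 3.67 to 6.31 and 5.04 to 6.07, and Slc45a2 and Oca2 were not well above background in the wild type. Skeletal muscle genes were lower in hair loss skin than in normal skin of the mutants for 8 of 8, with 0 called and summed levels of 7.55 to 9.02 against 8.84 to 10.2. Of 6 dermal papilla markers, 5 were higher in normal skin of the mutants than in the wild type and 0 were called. Their summed level was 1.22 to 1.50 in the wild type, 1.85 to 3.03 in mutant normal skin and 1.79 to 2.15 in hair loss skin, so both mutant groups lay above the wild type without overlap. Corin and Hhip of that list were not well above background in the wild type. The part of these differences in the values of the 10 transcription factors was not tested.

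Paralogs of the members were counted next. Of 21 paralogs, 14 could be tested. Of these, 2 were called higher in normal skin of the mutants, where 0.575% of all probes were. They were Dlx2 and Dlx4, the latter the neighbour of Dlx3 in a linked gene pair. Both entered the test through the mutant arrays, so the count supports nothing. Both were chosen for naming after their values were seen. Dlx2 lay at -5.52 to -5.33 in the wild type, not well above background on either array, and at -1.29 to 0.43 in mutant normal skin, at least 7.42-fold higher (adjusted p = 0.0109). Dlx4 lay at -5.86 to -4.89, again not well above background, and at -1.62 to 0.27, at least 6.29-fold higher (adjusted p = 0.0145). An at least value sets the mutant mean against the lowest signal that counted as well above background on the wild type arrays. Both calls were lost without either wild type array (adjusted p of 0.0855 to 0.0957) and with 1 mean per title name (0.440 for both), and with the normexp background correction the differences were 1.44 and 1.05 and were not called. Hair loss skin gave adjusted p-values of 0.0106 for Dlx2 and 0.0150 for Dlx4 against the same wild type arrays. Dlx3 itself, well above background on all arrays, had a difference of -0.16. Dlx2 and Dlx4 passed the filter only through the mutant arrays, so their adjusted p-values support no contrast with Dlx3. Dlx5, above background on all 8 arrays, differed by -0.25 (adjusted p = 0.586). Dlx6 (0.43, 0.873) and Dlx1 (at least 1.47-fold higher, 0.166) were not well above background in the wild type, and neither was called. The relatives of Lef1 had differences of 0.58 (Tcf7, adjusted p = 0.242), 0.37 (Tcf7l2, 0.536) and -0.33 (Tcf7l1, 0.386), none called. Gata6, Gata5 and Gata2 were not called either, nor were Foxn2 and Foxn3.

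Other transcription factors of the follicle had a median difference of 0.76 between normal skin of the mutants and the wild type, with 13 of 14 higher and 0 called. Among the 4 brightest, Lhx2, a factor of the early hair germ, differed by 1.01 (adjusted p = 0.116), Vdr, the vitamin D receptor, by 1.24 (0.0792), Hr, hairless, by 0.46 (0.500) and Nfib by 0.30 (0.419). In hair loss skin Vdr was called against the wild type (1.51, adjusted p = 0.0499), a call kept in 5 of 16 other settings. The 12 epidermal transcription factors had a median of 0.34, with 0 called in normal skin, and the 4 brightest (Grhl1, Klf4, Cebpb and Trp63) differed by 0.77, 0.18, 0.26 and 0.59. Tfap2a, named after its value was seen, was the 1 called in hair loss skin against the wild type (1.15, adjusted p = 0.0449). It was also called in 5 of 16 other settings, and 0.993% of all probes were called higher at the main setting.

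Signals that act on the members were counted in the same way. Of 14 ligands, receptors and mediators tested, 12 were higher in normal skin of the mutants, 0 were called and the median was 0.36. Beta-catenin itself (Ctnnb1) differed by 0.37 (adjusted p = 0.409), the ligand Wnt10a by 0.03 (0.969), Bmp4, a ligand upstream of Msx genes, by -0.01 (0.984) and Bmp7 by -0.37 (0.475). Jag1, a Notch ligand named after its value was seen, was the 1 called in hair loss skin against the wild type (1.45, adjusted p = 0.0482). It was called again in 5 of 16 other settings, and 0.993% of all probes were called higher at the main setting. Wnt5a, also named after its value was seen, differed by 1.21 in normal skin and was not called (adjusted p = 0.0956). The ligand Wnt10b, named on the same basis, was not well above background in the wild type and was at least 2.99-fold higher, also not called (adjusted p = 0.121).

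The letters of the normal skin arrays were compared after the data had been seen, because several members differed between arrays A and B. Lef1, Msx2, Hoxc13 and Dlx3 were lower in A than in B under all 3 title names, 4 of 10 members where 10.5% of all probes were. For Hoxc13, A minus B was -1.11, -0.94 and -0.71 in Mutant097, Mutant113 and Wild001, and the difference with the title name as a block was -0.92 (SE 0.17, adjusted p = 0.760). For Lef1 it was -1.04 (SE 0.29, adjusted p = 0.903), for Msx2 -0.74 (SE 0.27, 0.983) and for Dlx3 -0.73 (SE 0.24, 0.967). By limma 0 probes were called in this comparison (5.01% at an unadjusted p under 0.05). Foxn1, Cux1, Foxq1 and Prdm1 were lower in A under both mutant names and higher in A in the wild type.

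**Figure D5:**
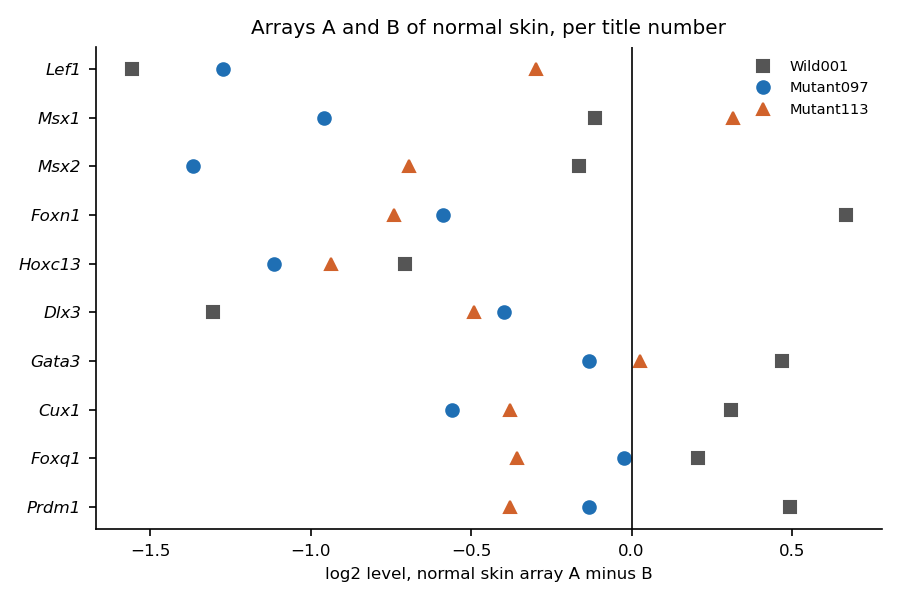
Log2 level in normal skin array A minus array B (x axis) for each transcription factor (y axis), with 1 symbol per title name. All 3 symbols lie left of 0 for Lef1, Msx2, Hoxc13 and Dlx3.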

How the data were processed

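Total RNA of 8 skin samples was measured on single-colour Agilent arrays. Per the file headers, spot intensity was background-corrected by Feature Extraction (11.5.1.1), and the matrix the authors deposited holds log2 values, which lay within 0.01 of 1 constant per array from the log2 intensity. Levels are the log2 processed intensity, spots of a probe averaged after outlier spots were left out, minus the 75th percentile of the array. Of 55603 probes, 30417 that were well above background on at least 2 arrays were tested with limma 3.58.1 (R 4.3.3), 1 model of the 3 groups (5 residual and 2.71 prior degrees of freedom), two-sided, with Benjamini-Hochberg adjustment. A model of group and title name gave the within-name values. The scripts were tested on simulated data. RefSeq accessions gave the symbols, and the probe with the highest mean stands for a gene.

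Every member is named, with the 3 most correlated genes for the 4 members of widest range. The plan was to name at most the 4 brightest genes of each list. Further genes of the lists are named as well, some of them after their values were seen. The members and lists were chosen with earlier results of these data known. Alternatives were quantile and normexp normalization (on median signals, offset 50, since mean signals are not used here), the deposited matrix, other percentiles and filters, blocks by slide row and title number, 1 mean per title number, and each array left out. Gene coordinates are not given, as the array design names another assembly than the gene table. The number of arrays limits the precision.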

Additional observations from a re-analysis of the deposited data

How the results depend on the processing

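Probes called between normal skin of the mutants and the wild type numbered 211 at the main setting, 128 with no filter, 64 among probes above background on all arrays, 856 with slide row as a block and 0 with 1 mean per title number, and 0 to 191 when 1 array was left out. The split moved too: 82.9% of calls were higher in the mutants at the main setting, 91.4% with no filter and 48.4% with the slide row block. For hair loss against the wild type these counts were 432, 183 with no filter, 1332 with the block, 0 with 1 mean and 0 to 708. For hair loss against normal skin of the mutants the count was 0 (also 0 with the title number as a block, although the labels do not say that a number pairs samples), and 0 to 11 when 1 array was left out. Between the normal skin of Mutant113 and Mutant097 it was 81, then 146 with quantile, 465 with normexp, 41 with the percentile over detected probes, 19 with no filter and 30 with the strict filter. The difference in lesion effect gave 0, then 3 with quantile, 287 with normexp and 4 with the strict filter. The cause of these moves was not tested, apart from the number of probes and arrays that each setting changes by construction.

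Over 16 other settings 0 to 2 members were called in normal skin and 0 to 3 in hair loss skin against the wild type. Hoxc13 was called in 5 of 16 settings in the first (2.21 to 3.33, adjusted p of 0.0385 to 0.578) and 10 of 16 in the second, Msx2 in 2 and 9 (adjusted p = 0.0897 in hair loss skin with the slide row block). Foxn1 was called with the slide row block in both (2.30, adjusted p = 0.0367, and 3.95, 0.0160). With that block the first value sets the wild type against normal skin of Mutant113 alone, where the sex-linked genes differ too. The second also draws on the hair loss arrays against normal skin of Mutant097. Prdm1 was called against the wild type in hair loss skin with normexp and with the strict filter (lowest adjusted p 0.0438). Of 161, 171 and 161 member values in the 3 comparisons, 146, 165 and 142 kept both direction and side of the threshold, 11, 0 and 13 kept the direction and lost the call, 3, 0 and 3 kept it and gained a call, and 1, 6 and 3 reversed, each in a comparison where that member was not called. With 1 array left out, the differences between hair loss and normal skin of the mutants ran from -0.28 to 1.23 for Lef1, -0.82 to 0.44 for Msx1 (also 0.16), -0.21 to 1.25 for Msx2, -0.37 to 0.99 for Dlx3 and -0.067 to 0.37 for Cux1. Those of Dlx3 against the wild type ran from -0.82 to 0.49 in normal skin and from -0.54 to 0.83 in hair loss skin (-0.51 without wild type array A), where the slide row block gave -0.15. Where a group keeps 1 array, that array is assumed to vary like the others.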
